A study of Mus musculus with 8 samples.

Results

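The genes described here make, place or mark the DNA double-strand breaks that begin meiotic recombination. They are *Spo11*, *Rec114*, *Mei4*, *Iho1*, *Ankrd31*, *Mei1*, *Prdm9* and *Zcwpw1*, chosen by symbol, and all 8 were found among the 40840 genes listed in the count table of each mouse. Their levels were compared between *Tra2b-cPEko* and wild type testes at 12 days of age (P12), the age at which the first wave of germ cells is in early meiotic prophase.

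RNA from whole testes of 8 C57/BL6 mice was sequenced as polyA-selected stranded libraries, with 4 mice (A to D) per genotype. The wild type group is the one the study so names, mice with a single *Tra2b* allele that carries LoxP sites around the poison exon and no Cre. The *Tra2b-cPEko* mice carried one *Tra2b* allele already lacking the poison exon, one allele with LoxP sites around it, and *Vasa-Cre*, which is active in germ cells from before birth. Somatic cells of these testes therefore had one deleted allele as well, and the controls had none. A poison exon brings a premature stop codon into an mRNA, and counts per gene show neither its inclusion nor any other splicing. The study's methods describe the mice as independent and warn that small differences in age at 12 days may alter the mix of cells.

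SPO11 is the catalytic protein that cuts both DNA strands in leptotene, the opening stage of meiotic prophase. REC114, MEI4 and IHO1 assemble on the chromosome axis and are needed for the cuts, ANKRD31 binds REC114, and MEI1 is also required for break formation. PRDM9 is a histone methyltransferase whose zinc fingers choose the hotspots where most breaks fall, and ZCWPW1 reads the methyl marks that PRDM9 leaves and acts in break repair. In the testis these genes are active mainly in germ cells that are entering or have just entered meiosis.

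The libraries held 36757386 to 59101569 reads on genes each, and levels are given as CPM, the count of a gene relative to this total with TMM scaling. *Tra2b* itself measured 156 to 176 CPM in the wild type group and 190 to 209 CPM in the *Tra2b-cPEko* group, without overlap, and its edgeR adjusted p was 0.0552. Libraries of wild type mice A and B stood apart. Of 15 pachytene spermatocyte markers listed, 12 passed the count filter. Their summed CPM was 902 and 922 in mice A and B. It was 541 and 585 in wild type mice C and D and 585 to 662 in the *Tra2b-cPEko* mice. *Piwil1*, a pachytene piRNA factor chosen here after its values were seen, had 43.6 and 46.8 CPM in mice A and B and 9.04 to 14.4 CPM in the other 6 mice. Values without mice A and B are therefore given as well.

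Per kilobase of canonical transcript, *Zcwpw1* was the most abundant of the 8 genes and *Mei4* the least. In wild type testes *Zcwpw1* had 97.4 ± 7.97 CPM per kilobase (SD, n = 4) and *Mei4* had 2.36 ± 0.124. The other 6 genes lay close together, from 11.9 ± 1.02 CPM per kilobase for *Rec114* through *Spo11* (12.8), *Mei1* (13.1), *Ankrd31* (13.8) and *Iho1* (15.5) to 15.9 ± 1.97 for *Prdm9*, and each neighbouring pair among these 6 had overlapping ranges. Over the union of all annotated exons, a second measure of length, *Zcwpw1* (29.5 CPM per kilobase) still came first, *Prdm9* (14.1) second and *Mei4* (1.53) last, but *Rec114* and *Spo11* fell to 5.91 and 5.66, below the 10.97 of *Mei1*.

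**Figure D1:**
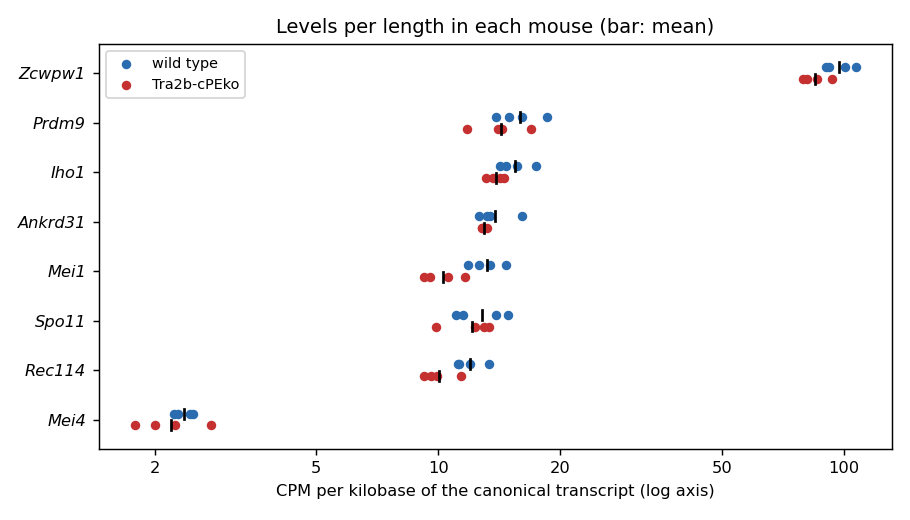
Points are single mice, in CPM per kilobase of the canonical transcript on a log axis, with wild type above *Tra2b-cPEko* for each gene and black bars for group means. *Zcwpw1* lies near 97.4 in wild type, *Mei4* near 2.36, and the other 6 genes between 11.9 and 15.9.

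On GRCm39 with GENCODE vM39, *Spo11* spans chr2:172819493-172835369 on the plus strand, *Mei1* chr15:81954197-82011015 (plus) and *Ankrd31* chr13:96884756-97046547 (plus). Another 3 members lie on chromosome 9, where *Rec114* spans chr9:58560133-58651247 (minus), *Mei4* chr9:81745723-82088060 (plus) and *Iho1* chr9:108280688-108309070 (minus). *Prdm9* spans chr17:15763335-15784616 (minus) and *Zcwpw1* chr5:137785549-137820883 (plus). Exons of *Rec114* share 500 bases, 26.9% of their union, with *Nptn* on the opposite strand, and those of *Zcwpw1* share 468 bases with *Pilra* and 261 with *Mepce*, also on the opposite strand. Whether the counting used the strand is not given in the sources used here, so reads on these shared bases cannot be assigned. *Nptn* had a log2 fold change of -0.00 between the genotypes, *Pilra* had at most 0.381 CPM in any mouse, and *Mepce* had a log2 fold change of -0.10. No member has a near-identical whole copy among the annotated transcripts.

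Promoter windows, 250 bases before to 50 after a start site, were taken from RefSeq on GRCm38.p6, which held 9 windows for 7 members and none for *Spo11*. Both strands were searched for 4 motifs: CNCCTCAG, of the kind bound by the meiotic entry factor STRA8, the E-box CACGTG, the E2F-type TTCCCGC and the CCAAT box. Windows of 3 members that differ in these matches are shown, chosen because *Mei1* and *Rec114* had the largest fold changes and the levels of *Prdm9* across mice lay close to those of the meiotic entry gene *Meiosin*. Capitals mark CNCCTCAG in the *Prdm9* window, chr17:15564305-15564604 (minus), and CACGTG in the *Rec114* window, chr9:58741510-58741809 (minus). The *Mei1* window, chr15:82082226-82082525 (plus), held none of the 4.
Prdm9: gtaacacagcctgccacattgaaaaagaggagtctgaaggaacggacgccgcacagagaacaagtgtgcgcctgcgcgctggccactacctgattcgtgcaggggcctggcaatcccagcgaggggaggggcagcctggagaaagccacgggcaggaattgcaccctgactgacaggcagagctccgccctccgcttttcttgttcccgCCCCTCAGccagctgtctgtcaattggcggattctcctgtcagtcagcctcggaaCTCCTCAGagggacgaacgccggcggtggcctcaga
Rec114: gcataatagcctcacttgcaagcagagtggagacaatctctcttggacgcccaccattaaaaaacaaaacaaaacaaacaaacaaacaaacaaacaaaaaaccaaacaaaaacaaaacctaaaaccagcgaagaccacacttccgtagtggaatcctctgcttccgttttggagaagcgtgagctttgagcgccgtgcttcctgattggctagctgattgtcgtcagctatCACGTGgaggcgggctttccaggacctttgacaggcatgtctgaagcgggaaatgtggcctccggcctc
Mei1: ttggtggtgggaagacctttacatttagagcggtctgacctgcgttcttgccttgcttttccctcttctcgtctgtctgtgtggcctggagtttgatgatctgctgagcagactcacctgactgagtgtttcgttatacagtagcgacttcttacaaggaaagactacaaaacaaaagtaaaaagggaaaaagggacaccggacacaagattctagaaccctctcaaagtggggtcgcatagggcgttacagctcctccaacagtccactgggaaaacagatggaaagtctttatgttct
The *Prdm9* window held CNCCTCAG at -41 and again at 15 from the start site, and an E2F-type match at -47 overlapped the former by 1 base. CNCCTCAG was in 7.94% of all 32851 promoters and in 1 of the 9 member windows. CACGTG, at -19 in *Rec114*, was in 7.15% of all promoters and in 1 member window. TTCCCGC was in 4.6% of promoters and in the windows of *Prdm9* and *Rec114*, and CCAAT in 37.4% and in windows of *Iho1*, *Mei4*, *Prdm9* and *Rec114*. These are matches of letters and not shown to be bound.

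All 8 genes had a lower mean in *Tra2b-cPEko* than in wild type testes, by small amounts, and none passed the edgeR test over all genes. Log2 fold changes were between -0.36 (*Mei1*) and -0.08 (*Spo11*), with a median of -0.15, against a median of -0.00 over the 19104 genes tested, of which 50.3% were lower. The median of the 8 rested in part on single mice, being -0.09 without wild type mouse A, -0.24 without *Tra2b-cPEko* mouse B and -0.08 without wild type mice A and B. With edgeR's quasi-likelihood test and Benjamini-Hochberg adjustment 0 of the 8 were called, where 0.157% of all genes tested were. At an unadjusted p under 0.05, 4 of the 8 were lower (*Mei1*, *Rec114*, *Zcwpw1* and *Iho1*), against 7.07% of all genes. Values of the genotypes did not overlap for 1 of the 8, *Mei1*, against 4.18% of all genes that were lower without overlap. DESeq2 called 1 of the 8, again *Mei1*, where it called 2.79% of the genes with an adjusted p, and limma-voom called 0. The 8 genes were chosen together and are active in the same cells, so the shared sign is no count of independent results. In whole testis, fewer cells of a type and less RNA per cell cannot be told apart.

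**Figure D2:**
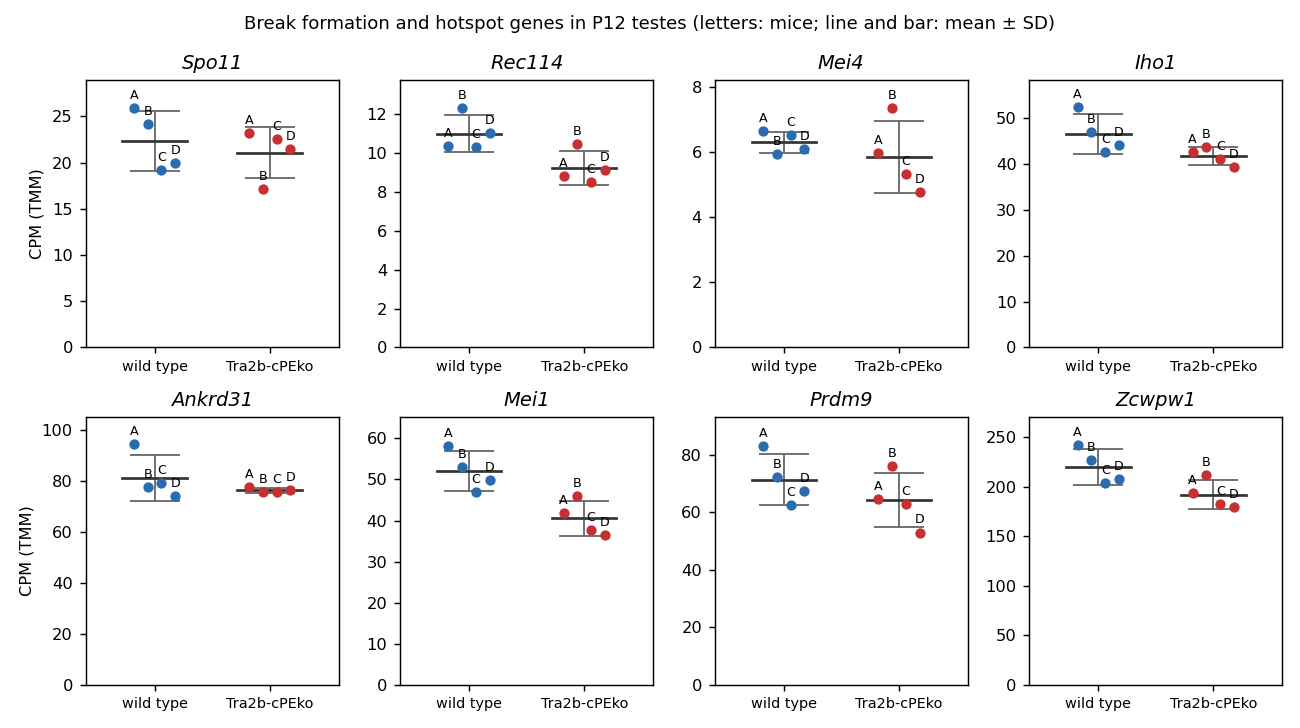
Each panel shows 1 gene, with the CPM of the 4 mice per genotype as lettered points and the mean ± SD as lines, on axes that start at 0. *Mei1* is the gene whose *Tra2b-cPEko* values (36.5 to 46.0 CPM) all lie below the wild type values (46.9 to 58.2 CPM), while the other 7 overlap.

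*Spo11*, the nuclease gene, did not differ between the genotypes beyond the spread of the mice. It had 25.9, 24.2, 19.2 and 20.01 CPM in wild type mice A to D and 23.2, 17.2, 22.6 and 21.5 CPM in *Tra2b-cPEko* mice A to D. The *Tra2b-cPEko* values ran from below the lowest wild type mouse to above its lower pair, and their lowest value came from mouse B. The means were 22.3 ± 3.21 and 21.1 ± 2.72 CPM (SD, n = 4), and the log2 fold change was -0.08 with a 95% interval from -0.33 to 0.17 (two-sided exact permutation p = 0.629). Between 630 and 1181 reads per mouse lay behind these values.

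Of the axis-bound group, *Rec114* and *Iho1* were slightly lower in *Tra2b-cPEko* testes and *Mei4* and *Ankrd31* were not separable. *Rec114*, whose product joins MEI4 in one complex, had 10.4, 12.3, 10.3 and 11.0 CPM in wild type and 8.82, 10.5, 8.51 and 9.15 CPM in *Tra2b-cPEko* mice. *Tra2b-cPEko* mouse B lay within the wild type range, and the other 3 lay below it. The log2 fold change was -0.25 (SE 0.09, 95% interval -0.45 to -0.06), with p = 0.0153 and adjusted p = 0.230 in edgeR and an exact permutation p of 0.0857. *Iho1*, which anchors the complex to the axis through HORMAD1, had 52.5, 47.0, 42.7 and 44.1 CPM in wild type and 42.6, 43.8, 41.2 and 39.3 CPM in *Tra2b-cPEko* mice. Its log2 fold change was -0.16 (SE 0.07, 95% interval -0.30 to -0.02), with p = 0.0328, adjusted p = 0.285 and an exact permutation p of 0.0571. Wild type mouse A gave the highest value, and *Tra2b-cPEko* mice A and B lay at the level of wild type mice C and D.

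*Mei4*, the least abundant of the 8 with 175 to 360 reads per mouse, had 6.65, 5.96, 6.52 and 6.10 CPM in wild type and 5.99, 7.35, 5.34 and 4.77 CPM in *Tra2b-cPEko* mice. The *Tra2b-cPEko* group held both the highest value of all, in mouse B, and the lowest, in mouse D. Its coefficient of variation was 19.0% in *Tra2b-cPEko* and 5.24% in wild type mice, and counting alone gives 7.56% at the lowest count. The log2 fold change was -0.11 (95% interval -0.38 to 0.16, exact permutation p = 0.4). It was -0.23 without *Tra2b-cPEko* mouse B, -0.06 without mouse C and -0.02 without mouse D. *Ankrd31* showed the reverse in its spread, with 94.3, 77.6, 79.1 and 73.9 CPM in wild type and 77.5, 75.6, 75.4 and 76.3 CPM in *Tra2b-cPEko* mice. The 4 *Tra2b-cPEko* mice lay within a coefficient of variation of 1.24%, against 11.1% in wild type, where mouse A stood above the rest. Neither difference in spread was tested. The log2 fold change of *Ankrd31* was -0.09 (95% interval -0.23 to 0.05, exact permutation p = 0.343), and -0.01 without wild type mouse A, which also moved *Iho1* to -0.10.

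*Mei1* had the largest fold change and the smallest p of the 8. It had 58.2, 53.1, 46.9 and 49.9 CPM in wild type mice A to D and 41.9, 46.0, 37.8 and 36.5 CPM in *Tra2b-cPEko* mice A to D. Every *Tra2b-cPEko* mouse lay below every wild type mouse, mouse B (46.0 CPM) lying closest to wild type mouse C (46.9 CPM). The means were 52.0 ± 4.81 and 40.5 ± 4.28 CPM (SD, n = 4), and the log2 fold change was -0.36 (SE 0.08, 95% interval -0.54 to -0.18). The exact permutation p was 0.0286, the smallest that 4 against 4 mice can give. In edgeR the p was 0.000872, the 161st smallest of all genes tested, and the adjusted p was 0.101. DESeq2 gave a log2 fold change of -0.36 with an adjusted p of 0.00593. The study, also with DESeq2, had named *Mei1* among lower genes from these same libraries. Without *Tra2b-cPEko* mouse B, the edgeR log2 fold change was -0.43 and the adjusted p 0.0487. Over all 20 alternatives the log2 fold change was between -0.43 and -0.25, the edgeR, voom or DESeq2 unadjusted p was under 0.05 in 20, and the adjusted p, from 0.00593 to 0.437, was under 0.05 in 3. The promoter window of *Mei1* is the one shown without capitals.

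For the hotspot genes, *Zcwpw1* was slightly lower in *Tra2b-cPEko* testes and *Prdm9* overlapped widely. *Prdm9* had 83.1, 72.3, 62.5 and 67.3 CPM in wild type and 64.6, 76.0, 63.0 and 53.0 CPM in *Tra2b-cPEko* mice. *Tra2b-cPEko* mouse B exceeded 3 of the wild type mice and mouse D lay below all of them, and the log2 fold change was -0.15 (95% interval -0.41 to 0.11, exact permutation p = 0.343). It was -0.07 without wild type mouse A, -0.24 without *Tra2b-cPEko* mouse B and -0.07 without mouse D. *Zcwpw1* had 243, 227, 204 and 208 CPM in wild type and 194, 212, 183 and 180 CPM in *Tra2b-cPEko* mice. Here 3 *Tra2b-cPEko* mice lay below the wild type range and mouse B lay within it. The log2 fold change was -0.20 (SE 0.07, 95% interval -0.34 to -0.06), with p = 0.0102 and adjusted p = 0.2001 in edgeR and an exact permutation p of 0.0857. With 6591 to 12260 reads per mouse, counting added at most 1.23% to the spread of *Zcwpw1*.

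Without wild type mice A and B, the comparison rested on 2 against 4 mice, and 1 of the 8 genes kept an unadjusted edgeR p under 0.05. In that fit 4.24% of all genes were lower at this level. *Mei1* had a log2 fold change of -0.26 (edgeR adjusted p = 0.382), and its 4 *Tra2b-cPEko* values, at most 46.0 CPM, stayed below the 46.9 and 49.9 CPM of wild type mice C and D. *Rec114* had -0.21 (edgeR adjusted p = 0.519), *Zcwpw1* -0.10 (adjusted p = 0.611) and *Iho1* -0.06. *Mei4* hardly moved, at -0.10. *Prdm9* (-0.01) and *Ankrd31* (-0.00) came close to no difference, and *Spo11* turned to 0.11 (edgeR adjusted p = 0.765).

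**Figure D3:**
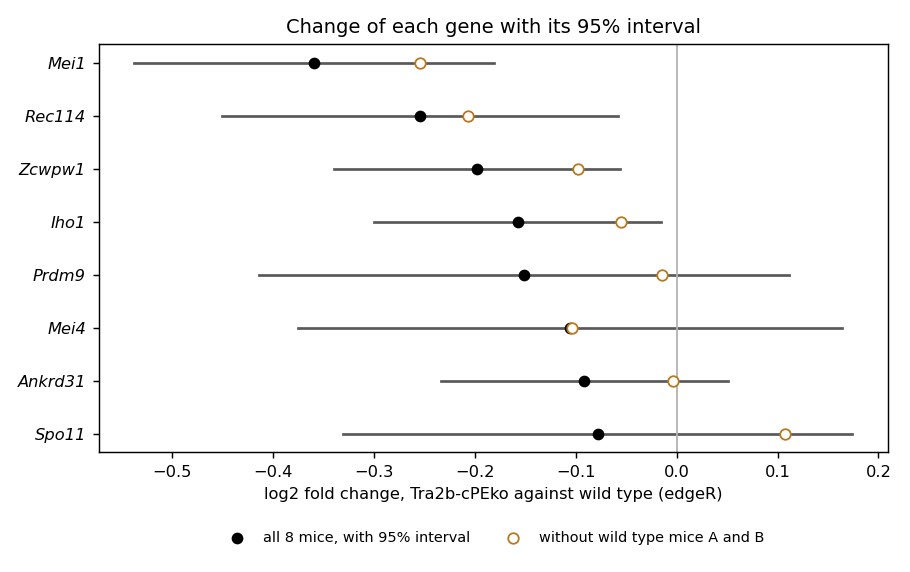
Black points are edgeR log2 fold changes of *Tra2b-cPEko* against wild type with all 8 mice, lines are their 95% intervals, and open points are the values without wild type mice A and B. Intervals of *Mei1*, *Rec114*, *Zcwpw1* and *Iho1* lie below 0, and the open points lie nearer to 0 than the black ones except for *Mei4*, which stays near -0.10, and *Spo11*, which moves to 0.11.

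Markers of germ cells of all stages moved the same way as the 8 genes. Of 8 such markers, 8 had a log2 fold change below 0 and 6 an unadjusted p under 0.05, and their summed level was 1624 to 1926 CPM in wild type and 1557 to 1622 CPM in *Tra2b-cPEko* mice. Without wild type mice A and B, 1 of these markers was lower at an unadjusted p under 0.05. Over all genes 7.07% were lower at this level with all 8 mice, and 4.24% without those 2. The germ cell list is not independent of the study, which picked *Mael* from these libraries. Markers of differentiating spermatogonia summed to 755 to 789 CPM in wild type and 646 to 692 CPM in *Tra2b-cPEko* mice, with 3 of 8 at an unadjusted p under 0.05, all lower, and 4 of 8 without mice A and B. Macrophage markers went the other way, with 6 of 10 at an unadjusted p under 0.05, all higher (5 of 10 without mice A and B). What share of all genes was higher at this level is not given. The macrophage markers had sums of 148 to 185 CPM in wild type and 184 to 220 CPM in *Tra2b-cPEko* mice. No marker of these lists was at 0. Summed levels of markers of Sertoli cells, peritubular and stromal cells, endothelial cells and undifferentiated spermatogonia overlapped between the genotypes, as did those of Leydig cells. Of 12 undifferentiated spermatogonia markers, 1 was lower and 0 higher at an unadjusted p under 0.05 with all 8 mice. Without mice A and B, 5 of the 12 were lower and 0 higher, with a median log2 fold change of -0.14. With the mean of the germ cell markers as a covariate, *Mei1* had a log2 fold change of -0.25 (edgeR adjusted p = 0.437). Set directly against these markers in each library, *Mei1* differed by -0.20 (exact permutation p = 0.114) and *Rec114* by -0.09 (exact permutation p = 0.486). The part of the spermatogonial and macrophage lists in the values of the 8 genes was not tested.

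Shares within a library do not depend on its total. Of the reads that fell on the 8 genes, *Mei1* took 10.1%, 10.2%, 9.95% and 10.4% in wild type mice A to D and 9.12%, 9.42%, 8.65% and 8.69% in *Tra2b-cPEko* mice A to D. All 4 *Tra2b-cPEko* shares lay below all 4 wild type shares (exact permutation p = 0.0286 over the 8 mice, the smallest possible), also below those of mice C and D alone. This share comes from the same counts in which *Mei1* had the largest fold change, so it is no separate result. Shares of the other 7 genes overlapped between the genotypes, with exact permutation p values of 0.143 to 0.743, and no p is adjusted over the 8 shares. *Zcwpw1* took the largest, 43.2 ± 0.608% against 42.6 ± 0.631% (SD, n = 4, wild type first).

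Set against 23 markers of early meiotic prophase from the same library, which include none of the 8 genes, no gene differed at an exact permutation p under 0.05. Neither this list nor *Mei1* is independent of the study, which named *Stag3* and *Mei1* among genes lower in these libraries. *Mei1* lay at -0.19 log2 units from the mean of these markers in wild type and at -0.46 in *Tra2b-cPEko* mice, a difference of -0.27 (exact permutation p = 0.0571). Only *Tra2b-cPEko* mouse B, at -0.252, came inside the wild type range of -0.274 to -0.121, and all 4 lay below wild type mice C and D, at -0.126 and -0.121. Without that mouse the difference was -0.34 (exact permutation p = 0.0286, the smallest that 4 against 3 can give). *Prdm9* went from -0.07 to -0.16 without the same mouse, also with an exact permutation p of 0.0286. Without *Tra2b-cPEko* mouse D it went to 0.016 (exact permutation p = 0.914). *Spo11* went the other way without *Tra2b-cPEko* mouse B, to 0.096 (exact permutation p = 0.0571). Every mouse was left out in turn, and these p values are not adjusted for that. The marker list itself changed sides with the mice used. With all 8 mice 7 of its 23 genes were lower and 2 higher at an unadjusted p under 0.05, and without wild type mice A and B 1 was lower and 7 were higher. Its median log2 fold change went from -0.09 to 0.06. The shares of all genes that were lower in these fits were 7.07% and 4.24%. The shares that were higher are not given, so the 7 higher markers are not set against one. For *Rec114* the difference was -0.16 (exact permutation p = 0.314), or -0.28 without wild type mouse A (exact permutation p = 0.0571), and for *Zcwpw1* -0.11 (exact permutation p = 0.2). *Iho1* (-0.07), *Mei4* (-0.03), *Ankrd31* (0.002) and *Spo11* (0.007) kept pace with the marker list more closely, with exact permutation p values of 0.257 to 0.971. Over these 8 relations no adjustment is given, since the genes were chosen with earlier results known.

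**Figure D4:**
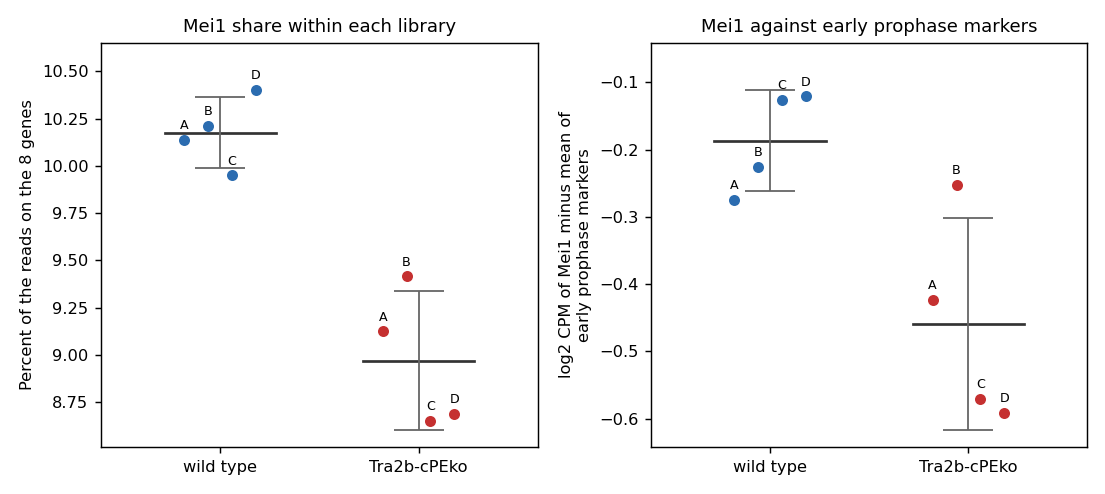
The left panel shows the percent of the reads on the 8 genes that *Mei1* took in each mouse, and the right panel its log2 CPM minus the mean log2 CPM of 23 early prophase markers, with lettered points for mice and mean ± SD as lines. Shares do not overlap (9.95% to 10.4% against 8.65% to 9.42%), and in the right panel *Tra2b-cPEko* mouse B lies inside the wild type range. Neither axis starts at 0.

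Across the 8 mice the genes did not vary as one. Wild type mouse A was the highest of all mice in 6 of the 8 genes, and *Tra2b-cPEko* mouse D the lowest in 5. Summed over the 8 genes, mouse A had 574 CPM and mouse D 420. *Tra2b-cPEko* mouse B departed from its group, being the highest of all mice in *Mei4* and the lowest in *Spo11*. Likeness between genes is given as the root mean square difference of log2 CPM, centred over the 8 mice, where 0 means the same profile. These distances describe 8 libraries that also share depth and genotype, and carry no test. *Iho1* and *Zcwpw1* were the closest pair (0.041), and *Spo11* and *Mei4* the farthest apart (0.294).

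*Spo11* lay farther from *Stra8* and *Meiosin*, genes of meiotic entry, than from *Spata22*, a gene of strand invasion. Its distance was 0.058 to *Spata22*, which encodes a partner of the single-strand binding protein MEIOB, and 0.315 to *Stra8*, which drives entry into meiosis together with *Meiosin*. *Prdm9* lay at 0.062 from *Meiosin*, 0.115 from *Stra8* and 0.231 from *Spata22*. *Mei1* (0.108), *Mei4* (0.136), *Zcwpw1* (0.137) and *Rec114* (0.187) also lay nearer to *Stra8* than to *Spata22*, at 0.259, 0.297, 0.1997 and 0.262. *Ankrd31* lay nearer to *Spata22* (0.142) than to *Stra8* (0.216). *Iho1* was about as far from *Stra8* (0.165) as from *Spata22* (0.164), and lay at 0.073 from the mean of the early prophase markers. *Stra8* and *Meiosin* were set beside the genes after their values were seen. *Spata22* is no independent reference for *Spo11* either, since it belongs to the nearest profiles of *Spo11* among 12287 genes. The short distance between them is therefore no separate result. To the mean of the early prophase markers, a list that holds *Spata22*, the distance of *Spo11* was 0.113. In *Tra2b-cPEko* mouse B, where *Stra8* was 0.26 above its mean and *Spata22* 0.25 below, *Mei4* was 0.28 and *Prdm9* 0.18 above theirs, while *Spo11* was 0.33 below. *Mei1*, at 0.006, was not high with *Stra8* in that mouse. In mouse D, with *Stra8* at -0.37 and *Spata22* at 0.06, *Mei1*, *Mei4* and *Prdm9* were at -0.33, -0.34 and -0.34 and *Spo11* at -0.01. The *Prdm9* promoter window shown above is the one with the STRA8-type letters, and the windows of *Mei1*, *Mei4*, *Zcwpw1* and *Rec114* lack them. *Mei1*, without these letters, lay nearer to *Stra8* (0.108) than *Prdm9* did (0.115). Any link between the letters and the levels was not tested.

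**Figure D5:**
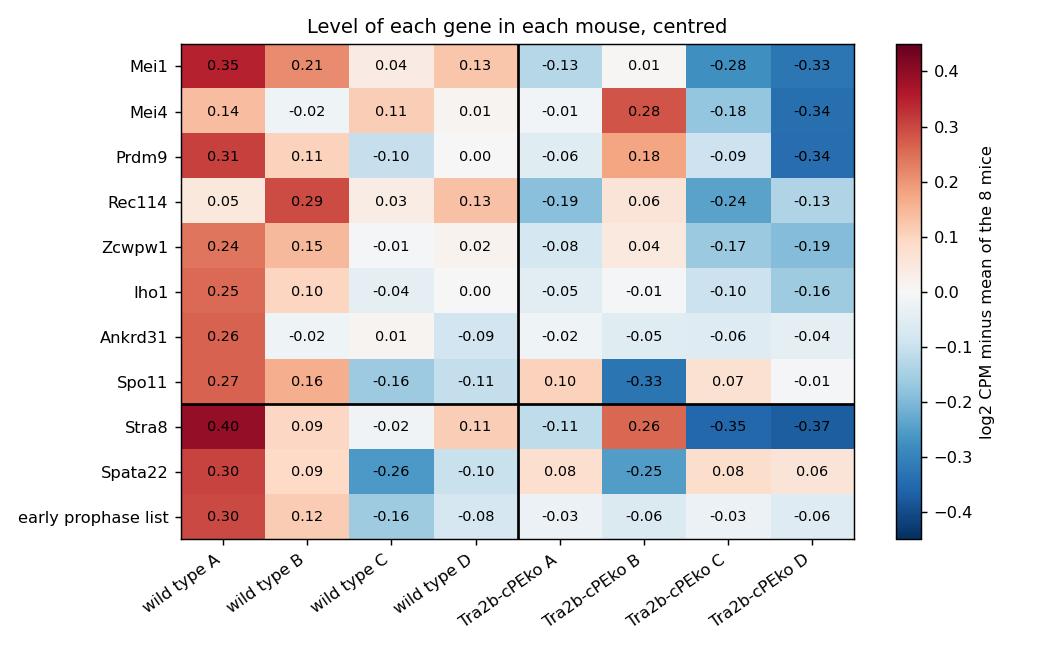
Cells give log2 CPM minus the mean of the 8 mice, with mice in columns (wild type left of the line) and the 8 genes above *Stra8*, *Spata22* and the mean of the early prophase markers in rows. In *Tra2b-cPEko* mouse B, *Mei4*, *Prdm9* and *Stra8* are high (0.28, 0.18 and 0.26) while *Spo11* and *Spata22* are low (-0.33 and -0.25).

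Among the 12287 genes averaging 5 CPM or more, those nearest in profile to *Mei1* were *Rbpms2* (0.043), *Stag3* (0.054), a cohesin subunit gene of the meiotic axis, and *Rapgefl1* (0.056). *Spo11* was nearest to *D1Pas1* (0.042), *Fbxo15* (0.050) and *Spata22* (0.058). For *Zcwpw1* they were *Syce1* (0.033), which encodes a central element protein of the synaptonemal complex, *Rps27* (0.036) and *Mdp1* (0.036). *Iho1* had the closest neighbours of the 8, *Tube1* (0.022), *Cdc7* (0.025), the kinase gene of replication origins, and *Phtf1* (0.030). *Ankrd31* was nearest to *Gm47814* (0.031) and *Abca5* (0.037), *Prdm9* to *Ap1m2*, *Gm7972* and *Gm31255* (0.057 to 0.061), *Rec114* to *Nt5dc2*, *Necab3* and *Snhg7* (0.049 to 0.054) and *Mei4* to *Cst8*, *Itprip* and *Renbp* (0.065 to 0.085). The median distance to all candidates was between 0.134 for *Ankrd31* and 0.230 for *Mei1*.

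Genes that act beside the 8 were read from the same fit, in which 7.07% of all genes were lower at an unadjusted p under 0.05. Of 10 partners in break formation and hotspot choice, edgeR and DESeq2 each called 0 and 0 had an unadjusted p under 0.05, with a median log2 fold change of -0.05. The 3 with the smallest p were *Trip13*, the ATPase gene that removes HORMAD proteins from the axis (-0.10, edgeR adjusted p = 0.334), *Hells*, a remodeller gene that works with PRDM9 at hotspots (-0.07, adjusted p = 0.480), and *Morc2b* (-1.13, adjusted p = 0.518), which averaged 6.73 CPM (SD 4.997) against 3.03 CPM (SD 1.96), wild type first.

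Among 14 genes of the meiotic axis and synapsis, edgeR called 0 and DESeq2 1, and 4 were lower at an unadjusted p under 0.05, with a median of -0.17. *Stag3* had a log2 fold change of -0.30 (edgeR adjusted p = 0.159), *Syce2* of -0.17 (adjusted p = 0.165) and *Syce1* of -0.23 (adjusted p = 0.192). Of 18 genes of break end processing and strand invasion, edgeR called 0 and DESeq2 4, and 5 were lower at an unadjusted p under 0.05, with a median of -0.08. *Rpa2*, a subunit gene of the single-strand binding complex, had -0.21 (adjusted p = 0.0892 in edgeR and 0.00302 in DESeq2), and *Mnd1*, a cofactor gene of strand invasion, had -0.42. Neither gene overlapped between the genotypes. Without wild type mice A and B, 0 axis genes were lower and 1 higher at an unadjusted p under 0.05, with a median of 0.04. The direction of the list median thus rested on those 2 mice. *Stag3* (-0.16), *Syce2* (-0.10) and *Syce1* (-0.10) stayed below 0, with unadjusted edgeR p values of 0.066, 0.066 and 0.144. Of the end processing genes 5 were lower and 2 higher without them, with a median of -0.01, and *Rpa2* (-0.17) and *Mnd1* (-0.24) stayed lower.

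Of 10 break signalling genes 9 were tested. *H2ax*, a histone gene that dividing cells use, was listed at 0 in every library, which says only that no read was assigned to that symbol. EdgeR called 0 and DESeq2 1, and 2 were lower at an unadjusted p under 0.05, with a median of -0.05. These were the checkpoint kinase genes *Chek1*, at -0.29 (edgeR adjusted p = 0.0923), and *Chek2*, at -0.21, with *Rad9a* next at -0.12. Of 8 genes of meiotic entry, edgeR and DESeq2 called 0 and none had an unadjusted p under 0.05, with a median of -0.11. The smallest p were those of *Meioc* (-0.21, edgeR adjusted p = 0.380), *Dazl* (-0.09) and *Dmrt1* (-0.13). No gene of any of these lists was higher at an unadjusted p under 0.05 with all 8 mice. Without wild type mice A and B, 3 signalling genes were lower and 1 higher, with *Chek1* and *Chek2* both at -0.22. The same fit had 2 partners lower and 1 higher, and 0 of the meiotic entry genes lower or higher. Over all genes, 4.24% were lower at an unadjusted p under 0.05 in this fit.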

How the data were processed

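RNAseq was made from whole testes, with 4 mice for each genotype. The authors deposited raw counts per gene, 1 table per mouse, without normalization. The submitters' processing notes name HISAT2 2.2.1, SAMtools 1.7.1, HTSeq 2.0.2 and deepTools 3.5.1. The paper's methods name Salmon, and the tables end with 5 summary lines of the htseq-count form, which were left out of totals and tests. The strand setting is not given in the sources used here.

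Counts were fitted in R 4.3.3 with edgeR 4.0.16 (filterByExpr with a minimum count of 10 and a minimum total of 15, TMM factors, robust quasi-likelihood F-test, genotype as the only term), with Benjamini-Hochberg adjustment over 19104 genes. Genes with an adjusted p under 0.05 are called. Single values had two-sided exact permutation tests on log2 CPM (prior count 2, 70 arrangements of the mice). DESeq2 1.42.0, limma-voom (limma 3.58.1), other factors and filters, covariates, a replicate block and fits without single mice were alternatives. Fits without wild type mice A and B, and with pachytene or germ cell markers as covariate, came in once the data had been seen. The methods were tested on simulated data.

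The 8 genes and all lists were chosen with earlier results of these data known. Of other pathway genes, the 3 with the smallest p per list, and the 3 nearest profiles per gene, are named, except 2 genes that are not reported here. Copies were searched with BLAST+ 2.17.0, and scripts ran in Python 3.11.15. Replicate letters did not pair the mice. P-values set the difference between the genotypes against the spread between these mice, and a library's depth limits the counting error only.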

Additional observations from a re-analysis of the deposited data

Results flagged for a closer look

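Reads outside annotated genes are in no comparison above. Their share was 12.4% to 12.8% in wild type and 13.2% to 13.6% in *Tra2b-cPEko* mice, with a mean of 13.4% in the latter, and the groups did not overlap. This was noted because it is a signal in lines that no comparison uses. Its part in the values of the 8 genes was not tested. Each of the 8 genes was also checked for a mouse far from the others of its genotype (Dixon's test, 16 groups, where chance gives 0.8), and none was found.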

How the results depend on the processing

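The number of genes called over all genes, 30 in the comparison as reported (25 higher, 5 lower), was 58 with upper-quartile factors (53 higher, 5 lower), 123 with no low-count filter, 14 at a mean count of at least 50, 507 with DESeq2 (301 higher, 206 lower), 11 with limma-voom, 12 without robust estimation, 56 with the early meiotic markers as covariate, 100 with the pachytene markers and 11 with the germ cell markers as covariate, 1 without wild type mice A and B, and 3 to 84 without single mice. Of the 8 genes, 1 was called (*Mei1*) with DESeq2 and 0 to 1 without single mice, where the 1 came from leaving out *Tra2b-cPEko* mouse B. At an unadjusted p under 0.05, 1 remained without wild type mice A and B, 1 with the pachytene and 1 with the germ cell covariate, and 2 to 5 without single mice, 2 being the number without wild type mouse B. For the covariate fits and those without single mice, the share of all genes at this level is not given. Residuals of same-letter mice correlated at -0.135 to 0.116, and 1 of 4 letters matched best with itself. These values show no pairing of the mice by letter, but 4 letters are too few to exclude it. With the letter as a replicate block 67 genes were called, 1 of them among the 8 (*Mei1*, adjusted p = 0.0452). Log2 fold changes turned sign for *Spo11*, to 0.023 with the early marker, 0.13 with the pachytene and 0.20 with the germ cell covariate, to 0.11 without wild type mice A and B, and to between -0.14 and 0.0052 without single mice. With the germ cell covariate *Ankrd31* turned to 0.055 and *Prdm9* to 0.0095. Set against germ cell markers in place of early prophase markers, *Mei4* turned to 0.043, *Iho1* to 0.0092 and *Prdm9* to 0.0084. Without single mice the differences to the early prophase markers ranged from -0.035 to 0.096 for *Spo11*, from -0.042 to 0.060 for *Ankrd31*, from -0.15 to 0.055 for *Mei4*, from -0.28 to -0.12 for *Rec114* and from -0.16 to 0.016 for *Prdm9*. *Mei1*, *Rec114* and *Zcwpw1* were lower under every alternative run. The cause of these changes was not tested. Depth limits *Mei4* most, with 175 reads in its shallowest library.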
